A study of Arabidopsis thaliana and Setaria viridis and Zea mays with 22 samples.

Results

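The lateral root cap is the outer sheath of cells on the flanks of the root tip. Its cells arise from the initials that also give rise to the epidermis, mature as they are displaced outwards, and are then shed or removed by programmed cell death. In Arabidopsis, the NAC transcription factors SMB (SOMBRERO, AT1G79580), BRN1 (BEARSKIN 1, AT1G33280) and BRN2 (BEARSKIN 2, AT4G10350) are known to drive the maturation and detachment of root cap cells. The cells described here are those that the authors' annotation of Arabidopsis thaliana root tips calls 6_LRC, a name that stands for the lateral root cap. They number 1876 of the 32790 Arabidopsis cells and nuclei, and of 76002 cells and nuclei counted over the 4 plants in the series. That total leaves out 3 libraries of the other plants with 4324 cells, whose species and preparation match no labelled group. All of them belong to cluster 6 of the authors' 22 clusters, and no other name was given to that cluster. The tables hold no expression of single genes, so SMB, BRN1 and BRN2 were not checked here and the name rests on the authors' annotation.

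Tips of 150 µm were cut from Col-0 wild-type roots 7 days after transfer to growth plates, and their age tag reads 10 days. Protoplasts (whole cells whose walls were digested away) made up 6 libraries with 17687 cells, which the table calls ctr1, ctr3248V3, ctr4h, ctr914, ical1 and ical32hV3. These names were matched to the preparation only, from the table's own column for it, and not to single labelled samples, and what they stand for is not stated. Nuclei released by lysis made up 3 libraries with 15103 nuclei, numbered as in the labels. Both were run on the 10x Chromium 3' platform, where a unique molecular identifier (UMI) stands for 1 captured transcript. A protoplast library summed to between 50723576 and 138202792 UMIs, and a nuclei library to between 16761417 and 23093915. The tables begin at 10002 to 15068 UMIs per protoplast and at 1150 to 1211 UMIs per nucleus, so the preparations start at different depths. The labels give chemistry version 2 for all protoplasts and version 3 for all nuclei. By these labels a difference between preparations cannot be told apart from one between chemistries. Libraries ctr3248V3, ctr4h, ctr914 and ical32hV3 nonetheless share 25, 7, 18 and 10 cell barcodes with the nuclei libraries, whereas ctr1 and ical1 share 0 with them. No barcode was 6_LRC in both a protoplast and a nuclei library. Separate plants or cultures are not recorded for the libraries. The p-values here therefore speak of the spread among these libraries, and that spread may be technical.

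Library ctr1 holds barcodes with 2 suffixes, and 4 barcodes occur under both with unequal UMIs, so these entries are different cells. The share of 6_LRC was 10.8% under the first suffix (180 of 1660 cells) and 10.7% under the second (175 of 1632 cells). The second began at 14482 UMIs and the first at 12165. The median 6_LRC cell held 13669.5 UMIs under the first suffix and 16343 under the second.

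In library ical1 each of 1085 cells is listed 2 times, with equal UMIs and genes but with a name given to each listing. In the first listing 138 cells were 6_LRC and in the second 141 were, with 136 in both. Of the 2 cells that lost the name, 1 became 14_Columella and 1 became 8_Initials_QC. The 5 that gained it came from 16_Undertermided (2 cells), 0_Young_Columella, 1_3_G2MphaseCells and 5_Atrichoblast. The listings hold the same values, so their overlap is no measure of how well the name holds for separate cells. Only the first listing was used below.

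The first question is how often each preparation recovered lateral root cap cells. By mean share they were among the commonest named cells in protoplasts and among the rarest in nuclei. Of 17 types they ranked 2 in ctr3248V3, ctr4h and ical1, 3 in ctr1, 6 in ical32hV3 and 8 in ctr914. In nuclei replicates 1, 2 and 3 they ranked 15, 15 and 14. Their share was 10.8% in ctr1, 13.8% in ctr3248V3, 11.1% in ctr4h, 4.68% in ctr914, 12.7% in ical1 and 6.56% in ical32hV3. In nuclei it was 0.836%, 1.49% and 1.69% in replicates 1, 2 and 3, from 43, 68 and 91 nuclei. Every protoplast library lay above every nuclei library, and ctr914, the lowest of the protoplasts, had a 95% Wilson interval of 4.05% to 5.39% against at most 2.07% for nuclei replicate 3. These intervals cover counting error only. Protoplast libraries also lay above all nuclei libraries in 14_Columella (3.42% to 7.84% against 0.816% to 1.78%) and 5_Atrichoblast (4.81% to 12.2% against 3.46% to 4.16%). They lay below all nuclei libraries in 4_To_determined, 11_18_Endocortex and 1_3_G2MphaseCells. By mean share 6_LRC ranked 3 of 17 types in protoplasts, next to 1_3_G2MphaseCells (10.8%) above it and 0_Young_Columella (9.04%) below it. In nuclei it ranked 16 of 17, next to 14_Columella (1.44%) above it and 16_Undertermided (1.22%) below it. In nuclei it differed from both neighbours by less than its SD of 0.446 percentage points, and in protoplasts by less than its SD of 3.56.

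**Figure D1:**
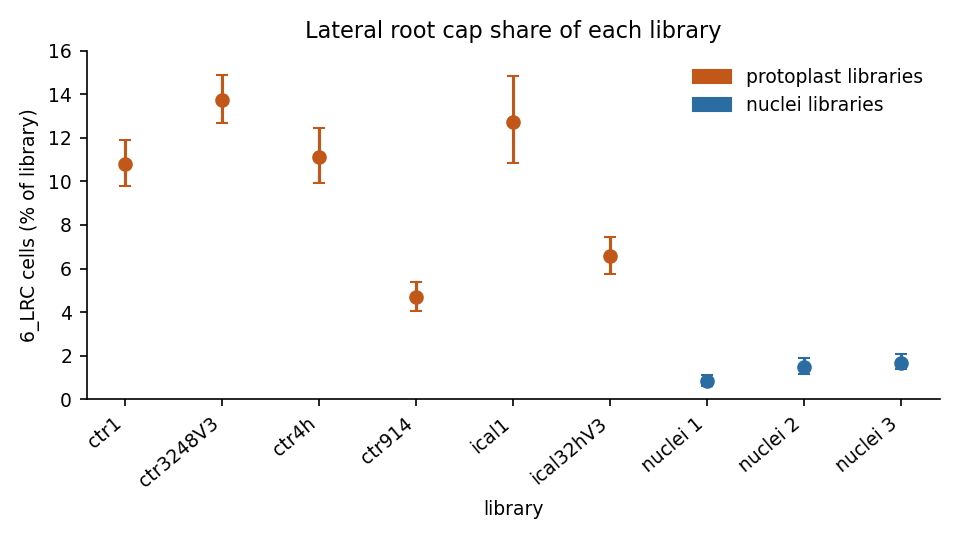
Share of 6_LRC among all cells of each library (points, percent) with 95% Wilson intervals (bars, counting error only), for the 6 protoplast libraries and the 3 nuclei libraries. All protoplast libraries lie at 4.68% or more and all nuclei libraries at 1.69% or less.

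The log2 fold of the share, protoplasts over nuclei, was 2.89 (SE 0.46), the highest of the 17 types (edgeR quasi-likelihood test, adjusted p = 0.000705). 14_Columella, which ranked 15 by mean share in nuclei, followed at 2.13 (SE 0.40, edgeR adjusted p = 0.00139). Whether these folds differ was not tested. Of the 17 types 35.3% were called in either direction, 23.5% higher in protoplasts and 11.8% lower. Counted together with 7_Young_LRC the log2 fold of 6_LRC was 1.42 (SE 0.44, edgeR adjusted p = 0.0304), and together with 9_Columella_LRC_Indertermined it was 1.44 (SE 0.32, edgeR adjusted p = 0.00399). Without both libraries named ical it was 2.91 (SE 0.50). With only the 4 protoplast libraries that share barcodes with the nuclei libraries it was 2.75 (SE 0.53, edgeR adjusted p = 0.00407). Whether the chemistry bears on the share was not tested. The fold of 6_LRC alone differed with the UMI range of the cells counted. It was 2.21 (SE 0.70, edgeR adjusted p = 0.0313) with protoplasts at or above 15068 UMIs, the highest of the library minima. It was 3.74 (SE 0.63, edgeR adjusted p = 0.000672) among the cells below the median UMIs of their own library. Among the cells at or above that median it was 0.90 (SE 0.77, edgeR adjusted p = 0.376) and did not pass. The sign turned with protoplasts of at least 30000 UMIs alone, where it was −0.91 and did not pass (SE 0.59, edgeR adjusted p = 0.200).

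The second question is where lateral root cap cells lie in the range of UMIs. In protoplasts they were poor in UMIs, and in nuclei replicates 1 and 2 they were not. The median 6_LRC protoplast held 15275 UMIs in ctr1, 14735.5 in ctr3248V3, 11671.5 in ctr4h, 11988 in ctr914, 18300 in ical1 and 12790 in ical32hV3. The median 6_LRC nucleus held 3036, 3863.5 and 2475 UMIs in replicates 1, 2 and 3. Against all other cells of the same library, the 6_LRC median was 0.415 to 0.822 times as high in protoplasts, lowest in ctr914 and highest in ctr3248V3. In nuclei it was 1.31, 1.38 and 0.827 times as high in replicates 1, 2 and 3. Ranked among 17 types from the lowest median UMIs, 6_LRC had rank 1 in ctr1, ctr914 and ical1, rank 2 in ctr4h, rank 3 in ical32hV3 and rank 5 in ctr3248V3. In nuclei replicates 1, 2 and 3 it had ranks 15, 14 and 3. Nuclei replicate 3 therefore lay on the side of the protoplasts, and the other two nuclei libraries did not.

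**Figure D2:**
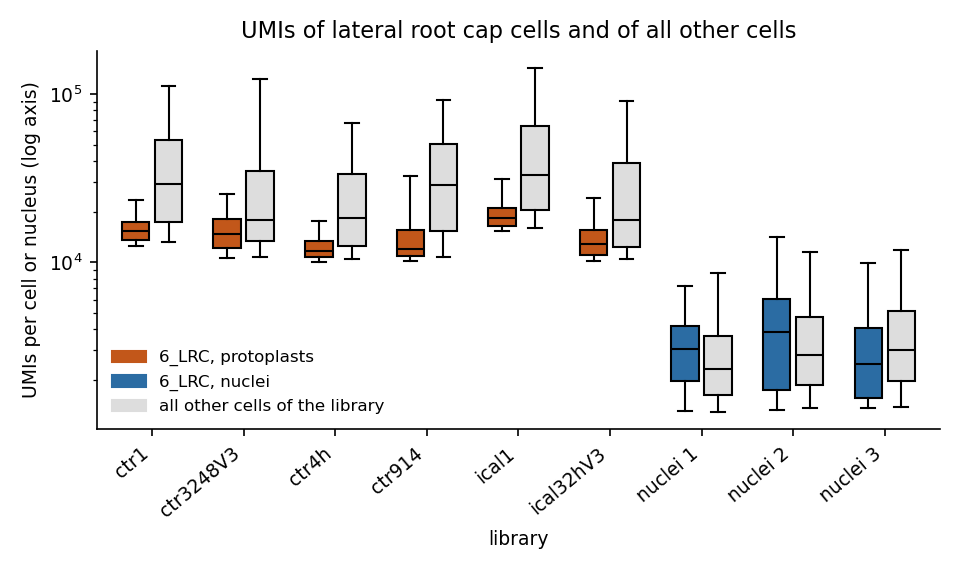
UMIs per cell or nucleus on a log axis for 6_LRC (coloured boxes) and for all other cells of the library (grey boxes), in the 6 protoplast libraries and the 3 nuclei libraries. Boxes run from the 25th to the 75th percentile with the median as a line, and whiskers from the 5th to the 95th percentile. In protoplasts the 6_LRC boxes are short and low, with medians of 11671.5 to 18300 UMIs, and in nuclei they span much of the range of the other cells.

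As a log2 difference from the median over types in its library, the UMI level of 6_LRC averaged −0.71 ± 0.12 in protoplasts (SD, n = 6) and 0.14 ± 0.41 in nuclei (SD, n = 3). The difference between preparations was −0.85 (SE 0.16, limma adjusted p = 0.000685), the most negative of the 17 types. Of these 47.1% were called in either direction, 17.6% lower in protoplasts and 29.4% higher. The other types called lower were also of the root cap, 7_Young_LRC at −0.52 (SE 0.15, limma adjusted p = 0.00873) and 0_Young_Columella at −0.50 (SE 0.13, limma adjusted p = 0.00452). Low UMI numbers in protoplasts were not particular to 6_LRC, since 7_Young_LRC averaged −0.72 ± 0.13 and 0_Young_Columella −0.70 ± 0.16 there (SD, n = 6). In nuclei these averaged −0.20 ± 0.33 and −0.19 ± 0.09 (SD, n = 3). Without nuclei replicate 3 the difference of 6_LRC was −1.09 (SE 0.13). When only protoplasts at or above 15068 UMIs were kept, it was −0.74 (SE 0.18, limma adjusted p = 0.000472).

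Within a library the fall of the 6_LRC share with depth was steep in protoplasts. When the cells of a library were ordered by UMIs and cut into 5 equal bins, 6_LRC took 22.2% ± 8.38 of the lowest bin in protoplasts (SD, n = 6) and 1.76% ± 1.29 in nuclei (SD, n = 3). In the bins that followed it took 16.0%, 8.20% and 3.09% of protoplasts, and 0.961%, 1.01% and 1.33% of nuclei. In the highest bin it took 0.0973% ± 0.181 of protoplasts and 1.62% ± 0.701 of nuclei. Only 4 of the 1674 6_LRC protoplasts stood in the highest bin, 1 in ctr3248V3 and 3 in ical32hV3. Library ctr3248V3 kept the highest share in the fourth bin, at 12.0%, whereas the other protoplast libraries had 0.304% to 2.30% there. The nuclei libraries did not share an order: the share was highest in the lowest bin in replicate 3 (3.06%), in the highest bin in replicate 2 (2.41%) and in the fourth bin in replicate 1 (1.17%).

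**Figure D3:**
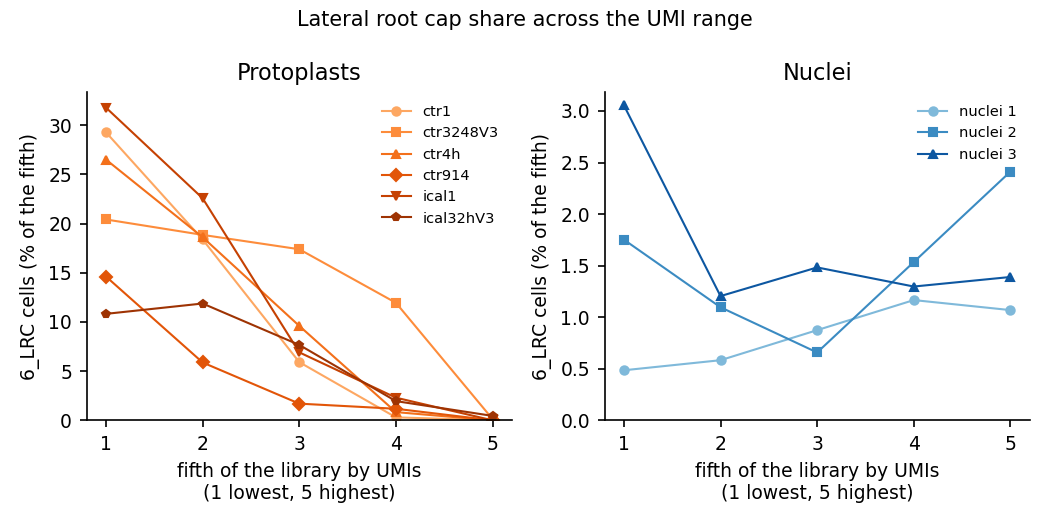
Share of 6_LRC (percent of cells) in 5 equal bins of each library, ordered from the lowest to the highest UMIs, with protoplast libraries on the left and nuclei libraries on the right, on separate vertical scales. In protoplasts the mean share falls to 0.0973% in the highest bin, and the nuclei lines follow no common order.

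The share of 6_LRC cells below the median UMIs of their library was 97.2% in ctr1, 70.3% in ctr3248V3, 92.5% in ctr4h, 91.6% in ctr914, 92.8% in ical1 and 81.7% in ical32hV3. In nuclei it was 32.6%, 42.6% and 60.4% in replicates 1, 2 and 3, so the groups did not overlap. The same share was not taken for the other types, so whether this is particular to 6_LRC was not tested. The log2 odds of being 6_LRC below against above the median were 3.41 ± 1.39 in protoplasts (SD, n = 6) and −0.28 ± 0.83 in nuclei (SD, n = 3). The difference of 3.69 gave an exact two-sided permutation p = 0.0119, the smallest that 6 libraries against 3 allow. Adjusted over the 7 measures tested by exact permutation of the libraries, all given here, it was 0.0208. The call was lost without ical1 or nuclei replicate 1 (adjusted p = 0.05 for each) or nuclei replicate 2 (0.0625), in exact permutation over fewer libraries.

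The spread of UMIs in 6_LRC, set against that of all other cells pooled, differed as well. The interquartile range of log2 UMIs in 6_LRC minus that of the other cells was −1.14 ± 0.185 in protoplasts (SD, n = 6) and 0.131 ± 0.292 in nuclei (SD, n = 3). All protoplast libraries, at −1.31 to −0.80, lay below all nuclei libraries, at −0.08 to 0.46 (exact permutation adjusted p = 0.0208). This call was lost without the same 3 libraries, at the same exact permutation p-values. The interquartile range was not taken for each of the other types, so whether the narrow spread is particular to 6_LRC was not tested. The pooled range also holds the gaps between types. Type medians ran from 0.487 to 3.30 times the median over types in protoplasts, and from 0.656 to 1.50 times in nuclei. The measure therefore cannot separate a narrow 6_LRC from wide gaps between the other types. In protoplasts 29.5% to 65.4% of 6_LRC cells lay within 1.25 times the minimum of their library, against 14.5% to 25.7% of the other cells. In nuclei the values were 11.6% to 22.0% of 6_LRC and 9.80% to 14.4% of the other nuclei. How many lateral root cap protoplasts lay under the minima was not tested, since the tables begin there.

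At fixed UMI numbers 6_LRC likewise became rare among the protoplasts richest in UMIs. The counts below pool the libraries, and the share did not fall at every step in ctr3248V3 and ical32hV3. From 10000 up to 12500 UMIs, 542 of 3034 protoplasts were 6_LRC, a number that rests on few or no cells of ctr1 and ical1, whose tables begin higher. From 12500 up to 15000 UMIs 412 of 2400 were, again without cells of ical1, and from 15000 up to 20000 UMIs 491 of 3211. From 20000 up to 30000 UMIs 6_LRC took 186 of 2723 protoplasts, from 30000 up to 50000 it took 42 of 2852, and at 50000 UMIs or more 1 of 3467. With its low UMI numbers, 6_LRC made up 4.56% ± 1.72 of all UMIs in protoplast libraries (SD, n = 6), less than its 9.94% of the cells. In nuclei it made up 1.42% ± 0.480 of UMIs (SD, n = 3) and 1.34% of the nuclei.

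The third question is how 6_LRC stood within the root cap, against the cap types named by the authors as younger or as columella, the gravity-sensing centre of the cap. 6_LRC is called mature here only in contrast to 7_Young_LRC, the type the authors call young. In protoplasts the mature lateral cap was a larger part of the cap than in nuclei. It took 31.1% of cap cells in ctr1, 24.4% in ctr3248V3, 33.6% in ctr4h, 20.9% in ctr914, 33.7% in ical1 and 16.7% in ical32hV3. In nuclei it took 8.51%, 7.65% and 8.13% in replicates 1, 2 and 3. These groups did not overlap, and the nuclei libraries lay within 0.866 percentage points of each other although the cap as a whole took 9.81% to 20.7% of their nuclei. Neither trait was particular to 6_LRC. 14_Columella took 11.8% to 22.6% of cap cells in protoplasts and 8.32% to 8.89% in nuclei, also without overlap. The 6_LRC difference of 18.6 percentage points gave an exact permutation adjusted p = 0.0208, a call lost without ical1 or nuclei replicate 1 (adjusted p = 0.05 for each) or nuclei replicate 2 (0.0625). With protoplasts of at least 20000 UMIs alone it was 9.68 percentage points (exact permutation adjusted p = 0.0476). That limit keeps 229 of the 1674 6_LRC protoplasts, from 4 in ctr4h to 86 in ctr3248V3.

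**Figure D4:**
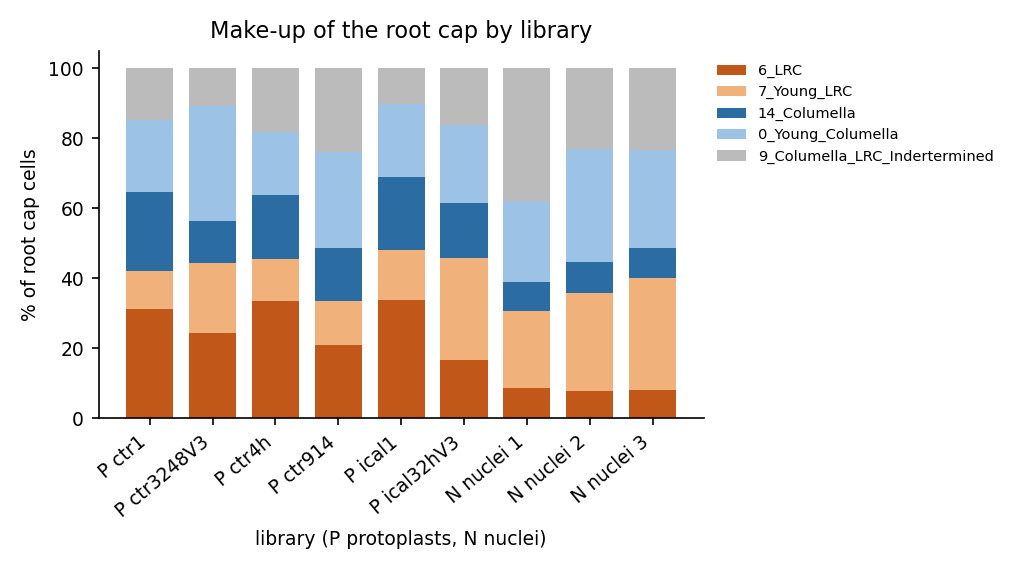
Make-up of the root cap in each library, as the percent of cells of the 5 root cap types (stacked bars), with protoplast libraries on the left and nuclei libraries on the right. 6_LRC takes 16.7% to 33.7% of the cap in protoplasts and 7.65% to 8.51% in nuclei.

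The ratio of mature to young lateral cap cells turned round between the preparations. For each 7_Young_LRC cell there were 2.89 6_LRC cells in ctr1, 1.22 in ctr3248V3, 2.80 in ctr4h, 1.67 in ctr914, 2.34 in ical1 and 0.575 in ical32hV3. In nuclei there were 0.384, 0.272 and 0.255 in replicates 1, 2 and 3. Mature cells outnumbered young ones in 5 of 6 protoplast libraries and in 0 of 3 nuclei libraries, with ical32hV3 as the exception. On the log2 scale the ratio averaged 0.75 ± 0.89 in protoplasts (SD, n = 6) and −1.74 ± 0.32 in nuclei (SD, n = 3), a 5.62-fold difference (exact permutation adjusted p = 0.0208). This call was lost without ical1 or nuclei replicate 1 (adjusted p = 0.05 for each) or nuclei replicate 2 (0.0625). With protoplasts of at least 20000 UMIs alone the log2 difference was 2.50, and with all it was 2.49. The first rests on 229 6_LRC and 128 7_Young_LRC protoplasts, with 4 of each in ctr4h, and the nuclei were not limited.

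Against the columella the difference in the ratio was 0.69 on the log2 scale, against 2.49 for the young lateral cap, and whether these differ was not tested. For each 14_Columella cell there were 1.06 to 2.06 6_LRC cells in protoplasts, lowest in ical32hV3 and highest in ctr3248V3, and 1.02, 0.861 and 0.948 in nuclei replicates 1, 2 and 3. The groups did not overlap, although ical32hV3 and nuclei replicate 1 nearly met. The difference of 1.61-fold passed (exact permutation adjusted p = 0.0278). With protoplasts of at least 20000 UMIs alone the log2 difference was −0.13 (exact permutation adjusted p = 0.845), from 229 6_LRC and 274 14_Columella protoplasts, with 4 and 3 in ctr4h. The call was also lost without ctr3248V3 or ctr4h (adjusted p = 0.0536), ical1 (0.0625) or nuclei replicate 1 (0.05), 2 (0.0833) or 3 (0.0714), always by exact permutation over fewer libraries.

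Among the protoplasts above the library minima, mature and young lateral cap cells matched in UMIs. Their medians averaged 14127 (6_LRC) and 14066 UMIs (7_Young_LRC) there, and the minima averaged 11210. In nuclei the medians averaged 3125 and 2436 UMIs, and the minima 1179. How far the minima hold the protoplast medians together was not tested. The median 6_LRC cell held 96.8% to 107% of the UMIs of the median 7_Young_LRC cell in the 6 protoplast libraries. In nuclei it held 115%, 166% and 106% in replicates 1, 2 and 3. On the log2 scale the difference was 0.0072 ± 0.054 in protoplasts (SD, n = 6) and 0.34 ± 0.35 in nuclei (SD, n = 3). Protoplasts minus nuclei gave −0.33 (exact permutation adjusted p = 0.0278), and 5 of 6 protoplast libraries lay below all nuclei libraries, with ical32hV3 as the exception. Without nuclei replicate 2, the library with the richest 6_LRC nuclei, it was −0.13 (exact permutation adjusted p = 0.0833), and the call was also lost without nuclei replicate 1 (0.0833) or ical1 (0.05). Against 14_Columella the log2 UMI difference was −0.15 ± 0.20 in protoplasts (SD, n = 6) and 0.34 ± 0.33 in nuclei (SD, n = 3), and 4 of 6 protoplast libraries lay below all nuclei libraries. Protoplasts minus nuclei gave −0.49 (exact permutation adjusted p = 0.0357), a call lost without any of ctr1, ctr914, ical1, ical32hV3 and nuclei replicates 1 and 2 (adjusted p 0.0536 to 0.179).

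The last question is how many genes were detected in lateral root cap cells. In protoplasts the median 6_LRC cell had 3613 detected genes in ctr1, 3572 in ctr3248V3, 3418 in ctr4h, 3756 in ctr914, 4012 in ical1 and 3575 in ical32hV3. In nuclei it had 2008, 2408.5 and 1708 in replicates 1, 2 and 3. Among 17 types this was the lowest or second lowest median in all 6 protoplast libraries, and 14, 15 and 3 of 17 from the lowest in nuclei replicates 1, 2 and 3. The span over protoplast libraries was narrow, at an SD of 204 genes around a mean of 3658, against an SD of 788 around 5333 for the other cells. Although their UMIs matched, mature lateral cap protoplasts had fewer genes than young ones. The 6_LRC median was 76.9% of the 7_Young_LRC median in ctr1, 78.2% in ctr3248V3, 94.9% in ctr4h, 96.5% in ctr914, 76.8% in ical1 and 86.0% in ical32hV3. In nuclei, where mature cells held more UMIs, it was 106%, 142% and 101%.

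Since genes rise with UMIs, they were also taken as a log2 difference from a quadratic curve of genes on UMIs fitted to all cells of the library. This gave −0.179 in ctr1, −0.232 in ctr3248V3, −0.0105 in ctr4h, 0.0146 in ctr914, −0.168 in ical1 and −0.176 in ical32hV3. In nuclei it gave 0.0226, −0.00077 and −0.0176 in replicates 1, 2 and 3. Libraries ctr4h and ctr914 thus lay among the nuclei, and the other 4 protoplast libraries, with 6_LRC second lowest among their types, lay below all nuclei. The same 2 libraries stood apart in 14_Columella, at 0.0241 and 0.109, where the other protoplast libraries had −0.350 to −0.189. Young lateral cap protoplasts lay on the other side, at 0.0216 to 0.190. The mean of 6_LRC was −0.13 ± 0.10 in protoplasts (SD, n = 6) and 0.00141 ± 0.020 in nuclei (SD, n = 3). The difference of −0.13 (SE 0.05) did not pass (limma adjusted p = 0.149). Of the 17 types 5.88% were called in either direction, which is 1 type, 0_Young_Columella, at 0.10 (SE 0.02, limma adjusted p = 0.0323). That call was lost without ical1 or any one nuclei replicate (limma adjusted p 0.0779 to 0.176) and in 4 of 8 other settings, and with depth-adjusted counts the value was 0.04 (limma adjusted p = 0.562). Without ctr914 the 6_LRC difference was −0.15 (SE 0.04) and passed (limma adjusted p = 0.0408), and over the other settings its adjusted p ran from 0.0534 to 0.390.

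**Figure D5:**
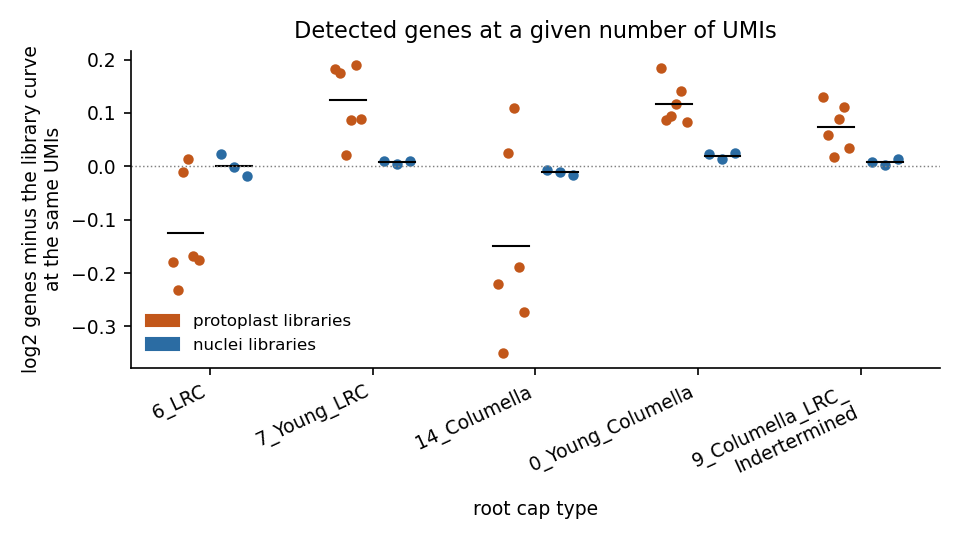
Median log2 detected genes minus the curve of the library at the same UMIs for the 5 root cap types, with a point for each protoplast library (left of each pair) and each nuclei library (right) and the mean as a line. In 6_LRC, 4 protoplast libraries lie at −0.232 to −0.168 and ctr4h and ctr914 at −0.0105 and 0.0146, beside the nuclei.

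Among the 6 protoplast libraries the share of 6_LRC was also set against depth and against its neighbours in the cap. With the median UMIs of the other cells it had Pearson's r = −0.04 and Spearman's rho = 0.09 (exact permutation p = 0.932 and 0.919, both unchanged by adjustment over 3 relations), and r = −0.70 without ical1 and ical32hV3. With the share of 7_Young_LRC it had r = 0.18 and rho = 0.43 (exact permutation p = 0.758 and 0.419, adjusted p = 0.932 and 0.629), and r = 0.87 without ctr3248V3 and ical32hV3. With the share of 14_Columella it had r = 0.77 and rho = 0.49 (exact permutation p = 0.0667 and 0.356, adjusted p = 0.2 and 0.629), and r = 0.53 without ctr1 and ctr914. None of the 3 relations passed, and those between shares have a common denominator.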

How the data were processed

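Per the file headers, the authors integrated the Arabidopsis libraries and clustered their cells at resolution 0.6. Cell Ranger 5.0.1, Seurat 4.0 and, as build, TAIR10 appear in the submitters' processing notes. No header or label records the filters on cells or how doublets were treated. The deposited counts of UMIs and detected genes per cell are not normalized. A second pair of deposited columns holds a score per cell, the depth-adjusted (SCT) counts, used only in 1 alternative and for the gene medians that close the text. The tables name the protoplast libraries ctr1, ctr3248V3, ctr4h, ctr914, ical1 and ical32hV3, which match no replicate number of the labels. They were grouped by the table's preparation column alone, as 6 libraries for the 6 labelled protoplast samples, and the labels do not explain the names. The nuclei libraries were matched by title.

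Cells named 6_LRC were kept, with the first listing of each ical1 barcode. Cells per type went into edgeR 4.0.16 (robust quasi-likelihood test without a trend), where the library size was the number of cells in the library and all 17 types had 10 cells or more. Relative UMIs and genes at a given UMI number, over types with 10 or more cells in the library concerned, were tested with limma 3.58.1 (robust eBayes). Single values were tested by exact two-sided permutation of libraries (numpy 2.4.6). All p-values except those of the chi-square test below were adjusted by Benjamini-Hochberg with a threshold of 0.05. DESeq2 1.42.0 served as an alternative. A share of 0 in a library would allow up to 0.0556% to 0.276% (3 counts). All 18 pairs of replicate libraries differed in cells per type (chi-square test with single cells as units, unadjusted p under 0.05), so none was merged. All types were tested, and the other 4 root cap types are named as the most like ones. The cells and comparisons were chosen with earlier results of these data known.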

Additional observations from a re-analysis of the deposited data

How the results depend on the processing

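The share of 6_LRC kept its direction and call without each library in turn (log2 folds 2.64 to 3.09) and in 18 of 21 other settings. Among those 18 it was lowest together with 7_Young_LRC (1.42), together with 9_Columella_LRC_Indertermined (1.44) and with protoplasts at or above 15068 UMIs (2.21). It did not pass with protoplasts of at least 20000 UMIs (1.07, edgeR adjusted p = 0.269) or with cells at or above their library's median UMIs (0.90), and it turned to −0.91 with protoplasts of at least 30000 UMIs. These settings remove the UMI range that holds most 6_LRC protoplasts. Relative UMIs were called in all settings (−1.09 to −0.73 without each library in turn). Genes at a given UMI number ranged from −0.15 to −0.11 without each library in turn.

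Without each library in turn, the other differences ran from 17.3 to 20.6 percentage points for the share of the cap, 2.33 to 2.80 for the log2 ratio to 7_Young_LRC and 0.60 to 0.79 for that to 14_Columella. They ran from 3.30 to 4.14 for the log2 odds below the library median, −1.38 to −1.11 for the interquartile range, −0.46 to −0.13 for log2 UMIs against 7_Young_LRC and −0.67 to −0.36 against 14_Columella. The calls for share of the cap, ratio to 7_Young_LRC, log2 odds and interquartile range were lost without ical1, nuclei replicate 1 (adjusted p = 0.05 for both) or nuclei replicate 2 (0.0625). Fewer libraries raise the smallest p that exact tests allow. Without nuclei replicate 3 the same calls were kept (exact permutation adjusted p = 0.0417). The unadjusted exact permutation p of each of these measures was 0.0357 without nuclei replicate 1, 2 or 3 alike. Their adjusted values thus differ between nuclei replicates only through the other measures adjusted with them. The log2 ratio to 14_Columella turned to −0.13 with protoplasts of at least 20000 UMIs.

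Types called for share, 6 of 17, became 3 without the undetermined types, 3 above the library medians and 12 with protoplasts of at least 30000 UMIs (4 to 6 without each library). Types called for relative UMIs, 8, became 5 against the median over all cells and 5 at or above 15068 UMIs (7 to 9 without each library). Types called for genes at a given UMI number, 1, became 3 with a straight line and 4 with a spread for each preparation. They became 0 with a lowess curve, a curve over the other types, both ical libraries left out or depth-adjusted counts (0 to 3 without each library). The settings with depth-adjusted counts, the second ical1 listing and ctr1 as 2 libraries were chosen after seeing the data. No paired analysis was possible because the protoplast libraries carry no replicate number. Depth limits protoplasts, of which none lies under 10002 UMIs.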

Other observations

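None of 22 per-library measures of 6_LRC had a protoplast library whose gap to its nearest neighbour exceeded Dixon's critical value of 0.625 times the range of the 6 libraries. Library ical32hV3 was the protoplast library nearest to the nuclei in the 6_LRC and 7_Young_LRC parts of the cap, at 16.7% and 29.1% of cap cells. The other protoplast libraries had 10.8% to 20.0% as 7_Young_LRC and the nuclei 22.2% to 31.9%. In 14_Columella ctr3248V3 was nearer to the nuclei (11.8% against 15.7% in ical32hV3). In 0_Young_Columella and 9_Columella_LRC_Indertermined ctr914 was nearer (27.4% and 23.9% against 22.2% and 16.2% in ical32hV3). Library ctr914 had the lowest share of 6_LRC among protoplasts, 4.68%, and also the lowest share of root cap cells as a whole, 22.4%. Cells of ctr1 and ical1 named 6_LRC shared 1 barcode, and no other pair of libraries shared a 6_LRC barcode. With depth-adjusted counts 6_LRC still had fewer detected genes than the other cells in every protoplast library. The medians were 3426.5 to 4227 genes in 6_LRC and 4163 to 6124 in the other cells. The order among all types was not taken with these counts.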
